A study of Mus musculus with 30 samples.

Results

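Id1, Id2, Id3 and Id4 encode the 4 inhibitor of DNA binding proteins of the mouse, and their levels were read in spermatogonia sorted from testes between birth and the second postnatal week. The genes were taken by symbol from a table of 20889 genes, and all 4 were present. RNA was sequenced after ribosomal depletion from C57BL/6 testis cells taken at postnatal days 0, 7, 12 and 14 (P0, P7, P12 and P14). The table has 11 columns, 1 for each population, in FPKM, fragments scaled to transcript length and to the mapped total, a level that can be compared between genes.

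Cells were selected by flow cytometry from mice with a green fluorescent protein (GFP) reporter, namely an Id4 reporter at P7 (ID4-GFP) and an Oct4 reporter at P0 and P7 (OCT4-GFP). Cells carrying the KIT receptor, the textbook surface marker of differentiating spermatogonia, were collected on magnetic beads at P7, P12 and P14. Cells carrying THY1, a surface protein enriched on undifferentiated spermatogonia, were collected on beads at P0, P7, P12 and P14. A further P7 column is labelled with both VASA and THY1, but the protocol names a VASA-GFP sort at P0 only, so the age and gate of that population carry a doubt. All these animals share the C57BL/6 background, and the labels give neither the number of animals per library nor any mutation besides the reporters. The ID4-GFP cells were chosen by a reporter of Id4, so their Id4 level is not independent of the sort.

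ID proteins contain the helix-loop-helix that lets transcription factors pair, but they lack the basic region that touches DNA. They pair with the E proteins TCF3, TCF4 and TCF12, which otherwise join tissue-restricted basic helix-loop-helix (bHLH) factors at E-box motifs, and so keep them off DNA. Id1, Id2 and Id3 are known in many cell types as direct targets of bone morphogenetic protein (BMP) signalling through SMAD proteins. In the mouse testis, Id4 is known as a marker of the spermatogonial stem cell and of the earliest undifferentiated spermatogonia.

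Because every population is represented by a single value of a gene, the differences have no replicate check, and neither a p-value nor a standard deviation can be given. Of the 11 columns, 5 stand for 2 libraries each and 6 for 1 library. A difference was called when log2(FPKM + 1) differed by at least 1, that is 2-fold on that scale, and the higher column held at least 5 FPKM. Beside each count of ID genes called stands, as its background, the share called among the genes tested, meaning all genes with at least 5 FPKM in either column of that comparison. Such a difference understates the change of genes with low levels. In sorted bulk cells, fewer cells of a type and less RNA per cell cannot be told apart.

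A few columns stood apart from their labels. Germ cell identity was present throughout, with 6 germ cell markers summing to between 681 FPKM in P0 THY1 cells and 1614 FPKM in P14 THY1 cells. P14 THY1 cells carried 3540 FPKM of 7 late spermatocyte markers, against 19.9 to 140 FPKM in the other columns, and held 1409 FPKM of Ldhc, the lactate dehydrogenase of late germ cells. There 6 of the 7 markers reached at least 1 FPKM, and Acrv1, an acrosomal gene of later stages, was listed at 0. P0 THY1 cells carried 6728 FPKM of 7 fibroblast markers, against 25.8 to 1326 FPKM elsewhere. The 11 Sertoli cell markers summed to 1376 FPKM in P12 THY1 cells and 905 FPKM in VASA THY1 cells, and the 7 Leydig cell markers to 1129 FPKM in P7 KIT cells. The matching marker sums stand beside the results that rest on these columns.

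Id1 stayed below 6 FPKM in the GFP-sorted cells and was high in the bead-selected cells of P0 and P7. It read 2.98 FPKM in P0 OCT4-GFP, 5.86 FPKM in P7 OCT4-GFP, 4.10 FPKM in P7 ID4-GFP and 3.12 FPKM in VASA THY1 cells. KIT cells held 62.3, 13.0 and 12.0 FPKM at P7, P12 and P14, and THY1 cells held 62.0, 47.7, 18.2 and 33.1 FPKM at P0, P7, P12 and P14. The highest column, P7 KIT, stood 20.9-fold above the lowest, P0 OCT4-GFP.

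Id2 had the widest range of the 4 genes, 101-fold. It read 2.64 FPKM in P0 OCT4-GFP, 2.95 FPKM in P7 OCT4-GFP, 0.869 FPKM in P7 ID4-GFP and 22.3 FPKM in VASA THY1 cells. KIT cells held 40.5, 26.5 and 20.4 FPKM at P7, P12 and P14, and THY1 cells held 87.5, 58.9, 51.2 and 39.1 FPKM at P0, P7, P12 and P14. In both bead series, neighbouring ages differed by less than 2-fold.

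Id3 reached the highest level of any ID gene, 127 FPKM in P0 THY1 cells, at the 98.3rd percentile of all genes in that column. It read 5.07 FPKM in P0 OCT4-GFP, 6.79 FPKM in P7 OCT4-GFP, 3.23 FPKM in P7 ID4-GFP and 10.5 FPKM in VASA THY1 cells. KIT cells held 61.3, 20.6 and 19.5 FPKM at P7, P12 and P14, and THY1 cells held 127, 86.0, 40.8 and 66.6 FPKM at P0, P7, P12 and P14. Its range was 39.3-fold, between P0 THY1 and P7 ID4-GFP cells.

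Id4 was ordered otherwise, with its highest value in P0 OCT4-GFP cells and its lowest in P14 KIT cells, a 21.9-fold range. It read 62.5 FPKM in P0 OCT4-GFP, 26.3 FPKM in P7 OCT4-GFP, 27.7 FPKM in P7 ID4-GFP and 17.6 FPKM in VASA THY1 cells. KIT cells held 12.0, 7.62 and 2.85 FPKM at P7, P12 and P14, and THY1 cells held 25.6, 29.6, 12.6 and 49.1 FPKM at P0, P7, P12 and P14. In percentiles of its column, Id4 stood at 93.3 in P0 OCT4-GFP, 51.8 in P14 KIT and 91.3 in P14 THY1 cells. The 3 KIT columns were the 3 lowest of the 11.

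**Figure D1:**
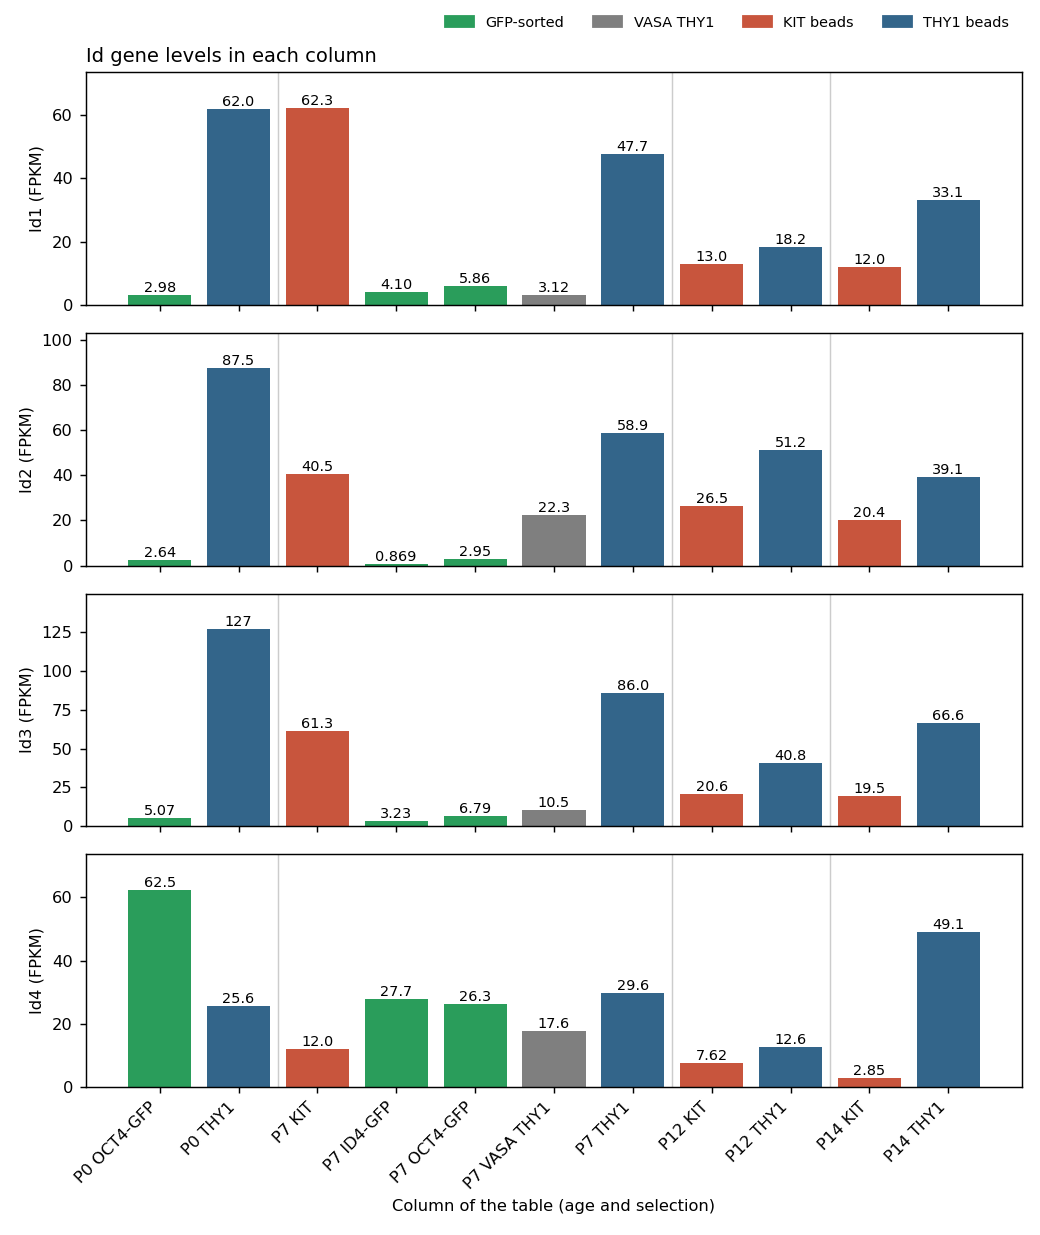
Levels of Id1, Id2, Id3 and Id4 in FPKM (bars from 0, 1 value per column) across the 11 populations, grouped by age and coloured by selection. Id1, Id2 and Id3 are low in the green GFP-sorted columns, while Id4 is highest in P0 OCT4-GFP at 62.5 FPKM and lowest in P14 KIT at 2.85 FPKM.

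When each gene's 11 columns were put in order, 38 of the 40 steps between neighbours were smaller than 2-fold on the log2(FPKM + 1) scale. The 2 larger steps were in Id2 between P14 KIT and P7 OCT4-GFP cells, a log2 difference of 2.44, and in Id4 between P12 KIT and P14 KIT cells, 1.16. The largest remaining step was 0.96. With 1 value each, neighbours joined by the smaller steps have no set order.

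Promoter sequence was matched by symbol for 3 of the 4 genes, Id2, Id3 and Id4, in RefSeq annotation of GRCm38.p6. The 250 bases before each transcription start are printed 5′ to 3′ on the gene's own strand, because Id2 and Id3 had a pattern across the columns that Id4 did not share. Capitals mark letters that match an E-box (CANNTG), a GC-rich BMP response element (GGCGCC) or a GC box (GGGCGG) on either strand. These windows are chr12:25096093-25096342 on the minus strand for Id2, chr4:136143572-136143821 on the plus strand for Id3 and chr13:48260866-48261115 on the plus strand for Id4.
Id2: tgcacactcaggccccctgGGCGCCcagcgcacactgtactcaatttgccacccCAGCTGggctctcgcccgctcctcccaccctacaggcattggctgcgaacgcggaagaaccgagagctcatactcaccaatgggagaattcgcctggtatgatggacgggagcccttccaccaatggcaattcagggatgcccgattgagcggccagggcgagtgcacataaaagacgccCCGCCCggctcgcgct
Id3: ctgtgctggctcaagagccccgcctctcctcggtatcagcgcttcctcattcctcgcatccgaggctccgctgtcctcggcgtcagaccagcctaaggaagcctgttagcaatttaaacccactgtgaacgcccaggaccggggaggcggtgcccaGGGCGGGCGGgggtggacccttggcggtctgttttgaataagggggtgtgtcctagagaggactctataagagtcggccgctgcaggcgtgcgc
Id4: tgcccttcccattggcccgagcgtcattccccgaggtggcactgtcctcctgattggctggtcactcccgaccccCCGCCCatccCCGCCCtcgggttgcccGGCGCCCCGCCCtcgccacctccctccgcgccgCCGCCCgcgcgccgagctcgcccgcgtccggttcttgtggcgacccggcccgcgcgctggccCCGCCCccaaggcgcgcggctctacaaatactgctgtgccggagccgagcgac
The Id4 window held 75.6% G and C, and the Id2 and Id3 windows 62.8% each, against a median of 52.4% over 32851 promoter windows. The Id4 window carried 5 GC box matches, the Id3 window 2 that overlap each other, and the Id2 window 1, and 32.7% of all windows carried at least 1. The BMP element occurred once in the Id2 window and once in the Id4 window, directly before a GC box in Id4, against 9.59% of all windows. An E-box was found once in the Id2 window and in neither of the other windows, while 66.2% of all windows held one. These are letter matches only.

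At P0, OCT4-GFP cells held far less Id1, Id2 and Id3 than THY1 cells and more Id4. All 4 genes were called, against 36.3% of the genes tested. Id1 differed by -3.98 on the log2(FPKM + 1) scale, Id2 by -4.60 and Id3 by -4.40. Id4 went the other way, with 62.5 FPKM in OCT4-GFP cells and 25.6 FPKM in THY1 cells, a log2 difference of 1.25. The fibroblast marker sum was 55.6 FPKM in OCT4-GFP and 6728 FPKM in THY1 cells. The sum of 7 myoid markers was 31.9 FPKM in OCT4-GFP and 1371 FPKM in THY1 cells, and the sum of 10 endothelial markers was 53.9 FPKM in OCT4-GFP and 237 FPKM in THY1 cells. Their part in the result was not tested. Columns were also scaled to the median log2(FPKM + 1) of the 6 germ cell markers. Their median level is 163 FPKM in OCT4-GFP and 46.2 FPKM in THY1 cells. With this germ cell scaling the Id4 difference became -0.45, while Id1, Id2 and Id3 remained lower.

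At P7, the low levels of Id1, Id2 and Id3 were seen in both GFP populations. In OCT4-GFP against THY1 cells, 3 of 4 genes were called, against 20.7% of the genes tested, with differences of -2.83 for Id1, -3.92 for Id2 and -3.48 for Id3. In ID4-GFP against THY1 cells, the same 3 genes were called, against 22.5% of the genes tested, with differences of -3.26, -5.00 and -4.36 for Id1, Id2 and Id3. These comparisons share the THY1 column. The endothelial sum was 34.2 FPKM in OCT4-GFP, 32.2 FPKM in ID4-GFP and 176 FPKM in THY1 cells. In the same order, the Sertoli sum was 122, 18.7 and 670.0 FPKM, and the fibroblast sum 81.5, 25.8 and 302 FPKM. The macrophage sum was 152 FPKM in OCT4-GFP, 8.72 FPKM in ID4-GFP and 37.4 FPKM in THY1 cells. The part of these markers was not tested. Id4 gave 26.3 FPKM in OCT4-GFP, 27.7 FPKM in ID4-GFP and 29.6 FPKM in THY1 cells, log2 differences of -0.16 and -0.09 from THY1 cells, and neither met the size rule. The cells selected by the Id4 reporter did not carry the highest Id4 value at P7, although the 3 values lie close together. Germ cell scaling brought Id4 in ID4-GFP cells to -1.03, past the threshold.

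In VASA THY1 cells at P7, Id2 and Id3 lay between the GFP-sorted and the THY1 values, whereas Id1 and Id4 lay below both. Compared with THY1 cells, Id1, Id2 and Id3 were lower, by -3.57, -1.37 and -2.92 on the log2 scale, so 3 of 4 genes were called, against 18% of the genes tested. Id4 was 17.6 FPKM in VASA THY1 and 29.6 FPKM in THY1 cells, a difference of -0.72. Id2 in VASA THY1 cells, at 22.3 FPKM, stood above all 3 GFP columns. The Sertoli marker sum was 905 FPKM in VASA THY1 cells and 670.0 FPKM in THY1 cells, and the endothelial sum was 26.8 FPKM in VASA THY1 and 176 FPKM in THY1 cells. Their part in the result was not tested. With VASA THY1 cells in place of the P7 THY1 cells, Id1 turned to 0.74 for OCT4-GFP and 0.31 for ID4-GFP cells, and Id3 lost its call for OCT4-GFP cells at -0.56. Id4 then gave 0.55 for OCT4-GFP and 0.63 for ID4-GFP cells.

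Across all ages, with the VASA THY1 column set aside, the 3 GFP columns did not overlap the 7 KIT and THY1 bead columns in Id1, Id2 or Id3. Id1 ranged over 2.98 to 5.86 FPKM (median 4.10) in GFP-sorted cells and 12.0 to 62.3 FPKM (median 33.1) in bead-selected cells. Id2 ranged over 0.869 to 2.95 FPKM (median 2.64) in GFP-sorted cells and 20.4 to 87.5 FPKM (median 40.5) in bead-selected cells. Id3 ranged over 3.23 to 6.79 FPKM (median 5.07) in GFP-sorted cells and 19.5 to 127 FPKM (median 61.3) in bead-selected cells. Of 12269 genes with at least 5 FPKM in a column, 22.4% likewise had no overlap between these column sets, in either direction. By direction, 10.5% of the 12269 genes were lower in every GFP column and 11.9% were higher. Id4 overlapped, with 26.3 to 62.5 FPKM in GFP-sorted and 2.85 to 49.1 FPKM in bead-selected cells. The VASA THY1 column fitted neither side, since its Id1 of 3.12 FPKM lay within the GFP range and its Id2 of 22.3 FPKM within the bead range. This split was drawn with the values known, and flow sorting, reporter and age mix differ between the column sets.

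**Figure D2:**
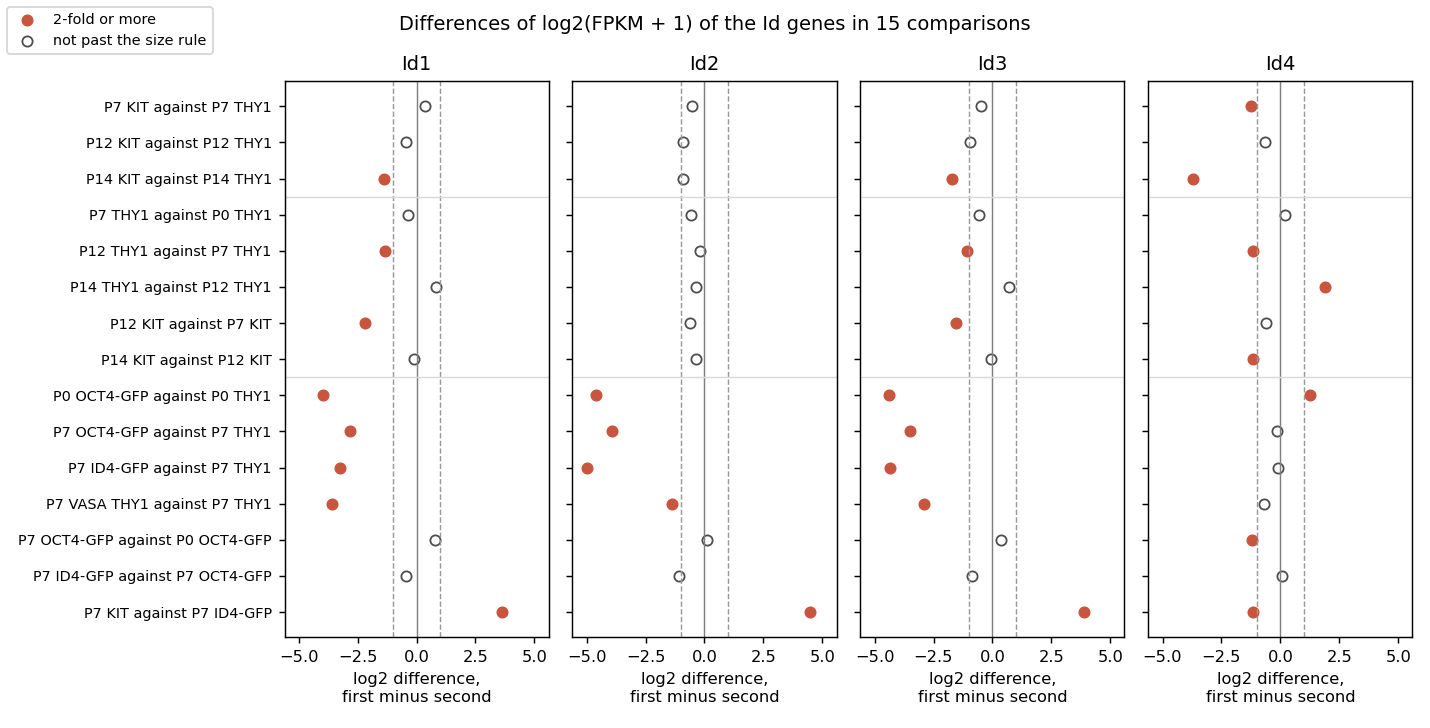
Difference of log2(FPKM + 1), first population minus second (x axis), for each Id gene in the 15 comparisons (rows). Filled points met the 2-fold size rule and open points did not, and dashed lines mark -1 and 1. Id1, Id2 and Id3 lie at -2.83 or lower in the 3 rows that set GFP-sorted cells against THY1 cells, where Id4 lies between -0.16 and 1.25.

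Of the GFP-sorted populations, P7 OCT4-GFP cells were compared with P0 OCT4-GFP and with P7 ID4-GFP cells, and a single difference met the size rule. P7 ID4-GFP cells, with 27.7 FPKM of Id4, were not compared with P0 OCT4-GFP cells. Id4 was 26.3 FPKM in P7 OCT4-GFP cells and 62.5 FPKM in P0 OCT4-GFP cells. That difference of -1.22 was the only call among the 4 genes, against 5.48% of the genes tested. The others, Id1, Id2 and Id3, differed by 0.78, 0.11 and 0.36. None of the 4 was called in ID4-GFP against OCT4-GFP cells at P7, against 1.69% of the genes tested, where Id4 differed by 0.07. Id2 differed by -1.08 there, at 0.869 FPKM in ID4-GFP and 2.95 FPKM in OCT4-GFP cells, below the 5 FPKM floor. Id3 differed by -0.88 and Id1 by -0.43.

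Id4 was lower in KIT than in THY1 cells at P7 and P14, and its P12 difference of -0.66 did not meet the size rule. At P7, Id4 was 12.0 FPKM in KIT cells and 29.6 FPKM in THY1 cells, a difference of -1.23, and was the only ID gene called, against 5.51% of the genes tested. Id1, Id2 and Id3 differed by 0.38, -0.53 and -0.48. All 7 Leydig markers were higher in P7 KIT than in P7 THY1 cells, with sums of 1129 FPKM in KIT cells and 117 FPKM in THY1 cells, and the Sertoli sum was 458 FPKM in KIT cells and 670.0 FPKM in THY1 cells. The part of these markers in the Id4 difference was not tested. At P12 none of the 4 was called, against 11.2% of the genes tested, with differences of -0.46, -0.92 and -0.95 for Id1, Id2 and Id3. Id4 was 7.62 FPKM in P12 KIT cells and 12.6 FPKM in P12 THY1 cells. The Sertoli sum was 555 FPKM in P12 KIT and 1376 FPKM in P12 THY1 cells, and 8 of its 11 markers were lower in KIT cells. Their part was not tested. Id2 and Id3 passed the threshold at P12 under quantile normalization, at -1.06 and -1.05, and Id2, Id3 and Id4 did so under germ cell scaling, at -1.46, -1.48 and -1.16. With VASA THY1 cells in place of P7 THY1 cells, Id4 in P7 KIT cells differed by -0.52 and was not called, while Id1 and Id3 were higher in KIT cells by 3.94 and 2.44, and Id2 gave 0.84.

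At P14 the difference was widest. Id4 was 2.85 FPKM in KIT cells and 49.1 FPKM in THY1 cells, 17.2-fold lower and -3.70 on the log2(FPKM + 1) scale. Id1 differed by -1.40 and Id3 by -1.72, so 3 of 4 genes were called, against 24.2% of the genes tested. Id2 differed by -0.91. The late spermatocyte markers summed to 140 FPKM in P14 KIT cells and 3540 FPKM in P14 THY1 cells, and the fibroblast markers to 347 FPKM in P14 KIT and 1326 FPKM in P14 THY1 cells. Their part in these differences was not tested. Scaling by germ cell markers brought Id1 to -0.78, which ended its call.

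P7 KIT and P7 ID4-GFP cells differed in all 4 genes, against 16.5% of the genes tested. Id1, Id2 and Id3 were higher in KIT cells, by 3.63, 4.47 and 3.88 on the log2 scale, and Id4 was lower, by -1.14. In FPKM, Id3 read 61.3 in KIT cells and 3.23 in ID4-GFP cells, and Id4 read 12.0 in KIT cells and 27.7 in ID4-GFP cells. The Leydig marker sum was 1129 FPKM in KIT and 3.13 FPKM in ID4-GFP cells, and the Sertoli sum was 458 FPKM in KIT and 18.7 FPKM in ID4-GFP cells. The endothelial sum was 228 FPKM in KIT and 32.2 FPKM in ID4-GFP cells. The part of these markers was not tested. The Id4 call was lost with a pseudocount of 5, at -0.94, and with germ cell scaling, at -0.37.

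With age, the THY1 cells showed no call at P7 against P0, lower Id1, Id3 and Id4 at P12 against P7, and higher Id4 at P14 against P12. P7 against P0 THY1 cells gave -0.37, -0.56, -0.56 and 0.20 for Id1 to Id4, and none was called, against 23.5% of the genes tested. Germ cell scaling brought Id1, Id2 and Id3 to -1.13, -1.33 and -1.32, and VASA THY1 cells as the P7 column brought them to -3.94, -1.93 and -3.47. Id4 turned to -0.55 and -0.52 in these settings. The fibroblast sum was 302 FPKM in P7 THY1 and 6728 FPKM in P0 THY1 cells, and its part was not tested. P12 against P7 THY1 cells gave -1.34 for Id1, -1.06 for Id3 and -1.17 for Id4, so 3 of 4 were called, against 8.41% of the genes tested, and -0.20 for Id2. The Sertoli sum was 1376 FPKM in P12 THY1 and 670.0 FPKM in P7 THY1 cells, with 5 of 11 markers higher, and the myoid sum was 425 FPKM in P12 THY1 and 215 FPKM in P7 THY1 cells. Their part was not tested. P14 against P12 THY1 cells gave 1.88 for Id4, the only call, against 32.5% of the genes tested, with 0.83, -0.38 and 0.70 for Id1, Id2 and Id3. The late spermatocyte sum was 3540 FPKM in P14 THY1 and 40.7 FPKM in P12 THY1 cells, and the Sertoli sum was 47.9 FPKM in P14 THY1 and 1376 FPKM in P12 THY1 cells. Their part was not tested. Germ cell scaling lowered the P14 Id4 difference to 0.60, which ended its call, while Id2 became -1.68, Id1 -0.45 and Id3 -0.62. With VASA THY1 cells as the P7 column, the P12 differences of Id1, Id2 and Id3 turned to 2.22, 1.17 and 1.86, and Id4 gave -0.45. With a pseudocount of 5, only Id1 of the P12 calls remained.

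In KIT cells, Id1 and Id3 were lower at P12 than at P7, and Id4 was lower at P14 than at P12. P12 against P7 KIT cells gave -2.17 for Id1 and -1.53 for Id3, so 2 of 4 genes were called, against 9.9% of the genes tested, with -0.59 for both Id2 and Id4, which passed the threshold under germ cell scaling at -1.08 and -1.06. P14 against P12 KIT cells gave -1.16 for Id4, the only call, against 16.7% of the genes tested, with -0.11, -0.36 and -0.08 for Id1, Id2 and Id3. That Id4 call was lost with a pseudocount of 5, at -0.68, and under quantile normalization, at -0.82. The Leydig sum was 224 FPKM in P12 KIT and 1129 FPKM in P7 KIT cells, and the endothelial sum was 70.2 FPKM in P12 KIT and 228 FPKM in P7 KIT cells. Their part in the lower Id1 and Id3 was not tested.

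The make-up of the ID pool differed between sorts. Id4 was 85.4% of the summed ID level in P0 OCT4-GFP cells, 77.2% in P7 ID4-GFP and 62.8% in P7 OCT4-GFP cells. It was 6.82%, 11.2% and 5.21% in KIT cells of P7, P12 and P14, and 8.48%, 13.3%, 10.3% and 26.1% in THY1 cells of P0, P7, P12 and P14. Id4 was the highest of the 4 genes in each GFP column and the lowest in 6 of the 7 bead columns, P14 THY1 being the exception. VASA THY1 cells lay between, with 32.9%, and there Id2 was the highest. Among bead columns, Id1 slightly exceeded Id3 only in P7 KIT cells, and Id2 exceeded Id3 in P12 KIT, P12 THY1 and P14 KIT cells.

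**Figure D3:**
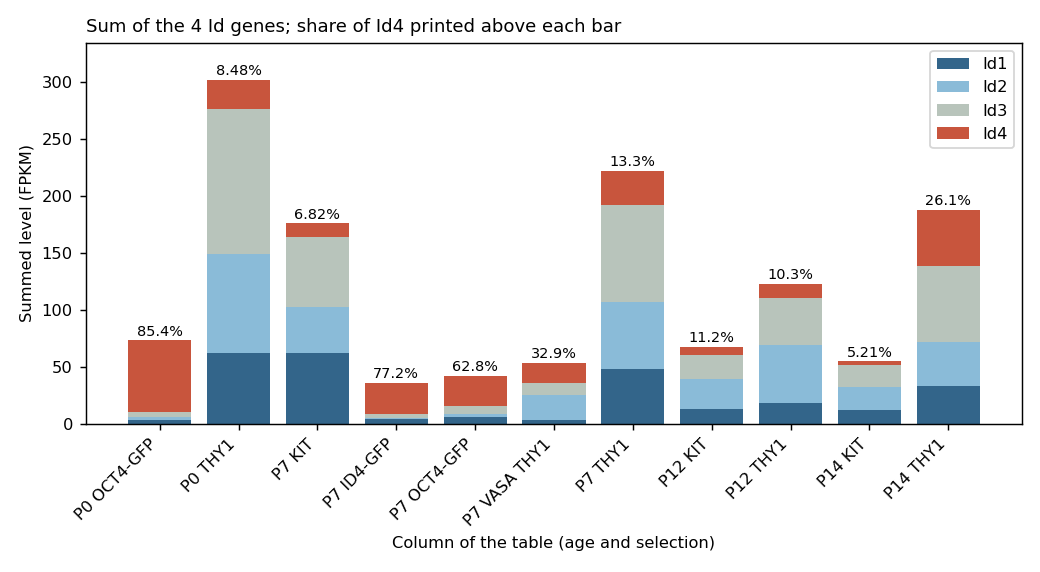
Summed FPKM of Id1 to Id4 (stacked bars from 0, 1 colour per gene) in each population, with the share of Id4 in percent printed above each bar. The sum ranges over 35.9 FPKM in P7 ID4-GFP to 302 FPKM in P0 THY1 cells, and Id4 makes up most of it in the 3 GFP-sorted columns.

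The summed level of the E protein genes, which encode the partners that ID proteins hold, varied far less. It lay between 75.2 FPKM in P14 THY1 and 133 FPKM in P7 ID4-GFP cells. The ID sum was 0.270 of the E protein sum in P7 ID4-GFP cells, 0.346 in P7 OCT4-GFP and 0.711 in P0 OCT4-GFP cells. It was 1.35, 0.569 and 0.459 of it in KIT cells of P7, P12 and P14, and 2.57, 1.98, 1.16 and 2.50 of it in THY1 cells of P0, P7, P12 and P14. These are ratios of transcript levels, not of proteins.

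Tcf3, which encodes E12 and E47, ranged over 58.5 to 92.4 FPKM in GFP-sorted cells and 36.5 to 67.6 FPKM in bead-selected cells. Tcf12, which encodes HEB, ranged over 35.3 to 39.7 FPKM in GFP-sorted cells and 29.9 to 63.8 FPKM in bead-selected cells. Tcf4, which encodes E2-2, was the lowest of the 3, with 3.63 to 4.73 FPKM in GFP-sorted and 4.62 to 25.8 FPKM in bead-selected cells. All 3 ranges overlapped. At P7, Tcf4 was 3.63 FPKM in ID4-GFP and 10.6 FPKM in THY1 cells, and Tcf3 was 92.4 FPKM in ID4-GFP and 58.1 FPKM in THY1 cells. Tcf4 alone of the 3 was called in each GFP comparison with THY1 cells. It differed by -2.23 at P0, and at P7 by -1.19 for OCT4-GFP and -1.32 for ID4-GFP cells. In these comparisons 36.3%, 20.7% and 22.5% of the genes tested were called.

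A list of 26 tissue-restricted bHLH genes was taken as possible partners of E proteins, and the pairing was not tested. Of the 26, 5 were higher and 2 lower in P7 OCT4-GFP than in P7 THY1 cells. There 20.7% of the genes tested were called, and 9 of the 26 reached the 5 FPKM floor. The median difference was 0.82 over the 13 with a mean of at least 1 FPKM, against 0.08 over all genes. Neurog3, which marks committed undifferentiated spermatogonia, was 14.0 FPKM in P7 OCT4-GFP and 0.843 FPKM in THY1 cells. Sohlh1, required for spermatogonial differentiation, was 178 FPKM in P7 OCT4-GFP and 58.1 FPKM in THY1 cells, and Ascl2 was 12.9 FPKM in P7 OCT4-GFP and 3.27 FPKM in THY1 cells. In P0 OCT4-GFP against P0 THY1 cells, 4 of the 26 were higher and 2 lower, where 36.3% of the genes tested were called. The 5 FPKM floor was reached there by 8 of the 26. Sohlh2 was 57.6 FPKM in P0 OCT4-GFP and 17.6 FPKM in P0 THY1 cells, and the mesenchymal factor Tcf21 was 1.42 FPKM in P0 OCT4-GFP and 82.5 FPKM in P0 THY1 cells. In ID4-GFP against THY1 cells at P7, 3 were higher and 2 lower, where 22.5% of the genes tested were called. The floor was reached in that comparison by 9 of the 26.

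Genes whose products bind ID proteins or act on their turnover or known outputs were followed as 7 genes. Cdkn1a, which encodes the cell cycle inhibitor p21 and is repressed by ID1 in other cells, was 3.28 FPKM in OCT4-GFP, 2.16 FPKM in ID4-GFP and 0.920 FPKM in VASA THY1 cells, against 30.3 FPKM in P7 THY1 cells. It was also lower in P12 KIT cells, at 7.52 FPKM against 26.1 FPKM in P12 THY1 cells. Cdkn2a went the other way, with 52.6 FPKM in OCT4-GFP and 61.3 FPKM in ID4-GFP cells, against 21.8 FPKM in P7 THY1 cells. Usp1, a deubiquitinase that stabilises ID proteins in human osteosarcoma cells, was 67.5 FPKM in P14 THY1 and 18.8 FPKM in P12 THY1 cells, a difference of 1.79. Of the 7 genes, 2 were higher and 2 lower in that comparison, where 32.5% of the genes tested were called. In each P7 GFP comparison with THY1 cells, 1 was higher and 1 lower, where 20.7% and 22.5% of the genes tested were called. Of the 7 genes, 6 reached the 5 FPKM floor in each of them.

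Of the BMP ligands, Bmp4 had its highest level in P0 THY1 cells, as Id2 and Id3 did. It was 2.72 FPKM in P0 OCT4-GFP and 23.4 FPKM in P0 THY1 cells, and 0.716 FPKM in P7 OCT4-GFP, 0.408 FPKM in P7 ID4-GFP and 6.09 FPKM in P7 THY1 cells. Bmp7 ran the other way at P0, with 21.8 FPKM in OCT4-GFP and 7.06 FPKM in THY1 cells. Of the 7 ligands, 1 was higher and 1 lower at P0, where 36.3% of the genes tested were called. In each P7 GFP comparison with THY1 cells 1 was lower, where 20.7% and 22.5% were called. Those shares cover genes at the 5 FPKM floor. It was reached by 3 ligands at P0 and 2 in each P7 comparison, too few to set against the shares.

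Of 7 BMP receptor genes, 1 was higher and 3 lower in P0 OCT4-GFP than in P0 THY1 cells, where 36.3% of the genes tested were called, with a median difference of -0.81 against -0.03 over all genes. The type II receptor Bmpr2 was 8.66 FPKM in P0 OCT4-GFP and 40.0 FPKM in P0 THY1 cells, and 12.1 FPKM in OCT4-GFP, 11.4 FPKM in ID4-GFP and 35.8 FPKM in THY1 cells at P7. Acvr2b, a type II receptor shared with activins, was 32.5 FPKM in OCT4-GFP, 33.9 FPKM in ID4-GFP and 12.0 FPKM in THY1 cells at P7. The P7 counts were 1 higher and 2 lower for OCT4-GFP, with a median of -0.95 against 0.08 over all genes and 20.7% of the genes tested called. They were 1 higher and 3 lower for ID4-GFP cells, with -0.79 against 0.06 over all genes and 22.5% called. Of the 7 receptors, 6 reached the 5 FPKM floor at P0 and in each P7 comparison. Acvrl1, a type I receptor known from endothelium, was 0.204 FPKM in ID4-GFP and 5.80 FPKM in THY1 cells.

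Among 4 SMAD genes of the BMP branch, Smad5 alone met the size rule at P0, where 36.3% of the genes tested were called. Smad5 was 11.5 FPKM in OCT4-GFP and 28.4 FPKM in THY1 cells, and 3 of the 4 genes reached the 5 FPKM floor. Smad6, 1 of the 10 BMP inhibitors, is an inhibitory SMAD that BMP signalling is known to induce. It was lower at P12 than at P7 in both bead series. Smad6 was 2.23 FPKM in P12 KIT and 8.83 FPKM in P7 KIT cells, and 3.08 FPKM in P12 THY1 and 8.84 FPKM in P7 THY1 cells. It read 12.9 FPKM in P0 THY1, 0.934 FPKM in P14 KIT and 2.72 FPKM in P14 THY1 cells. GFP-sorted cells held 5.70 FPKM in P0 OCT4-GFP, 4.83 FPKM in P7 OCT4-GFP and 4.25 FPKM in P7 ID4-GFP. Smad6 was thus higher there than in the P12 and P14 bead columns, unlike Id1, Id2 and Id3. Smad7, also inhibitory, was 2.93 FPKM in P14 KIT and 9.05 FPKM in P12 KIT cells, and 4.48 FPKM in P14 THY1 and 13.6 FPKM in P12 THY1 cells. In all, 1 of the 10 inhibitors was lower in each P12 against P7 comparison, where 9.9% of the genes tested were called for KIT and 8.41% for THY1 cells. Against P12, 2 were lower in P14 KIT cells, where 16.7% were called, and 3 in P14 THY1 cells, where 32.5% were called. None was higher. The shares cover only genes at the 5 FPKM floor, so they are not like for like with counts over 10 inhibitors. In P12 against P7 cells, 6 inhibitors reached the floor for KIT and 7 for THY1 selection. In P14 against P12 cells, 4 reached it for KIT and 6 for THY1 selection. In P0 OCT4-GFP against P0 THY1 cells, 1 inhibitor was higher and 4 lower, and 8 reached the floor. There 36.3% of the genes tested were called. Against P7 THY1 cells, 1 was lower in OCT4-GFP and 0 in ID4-GFP cells, and none was higher. The floor was reached by 6 in each, where 20.7% and 22.5% were called.

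**Figure D4:**
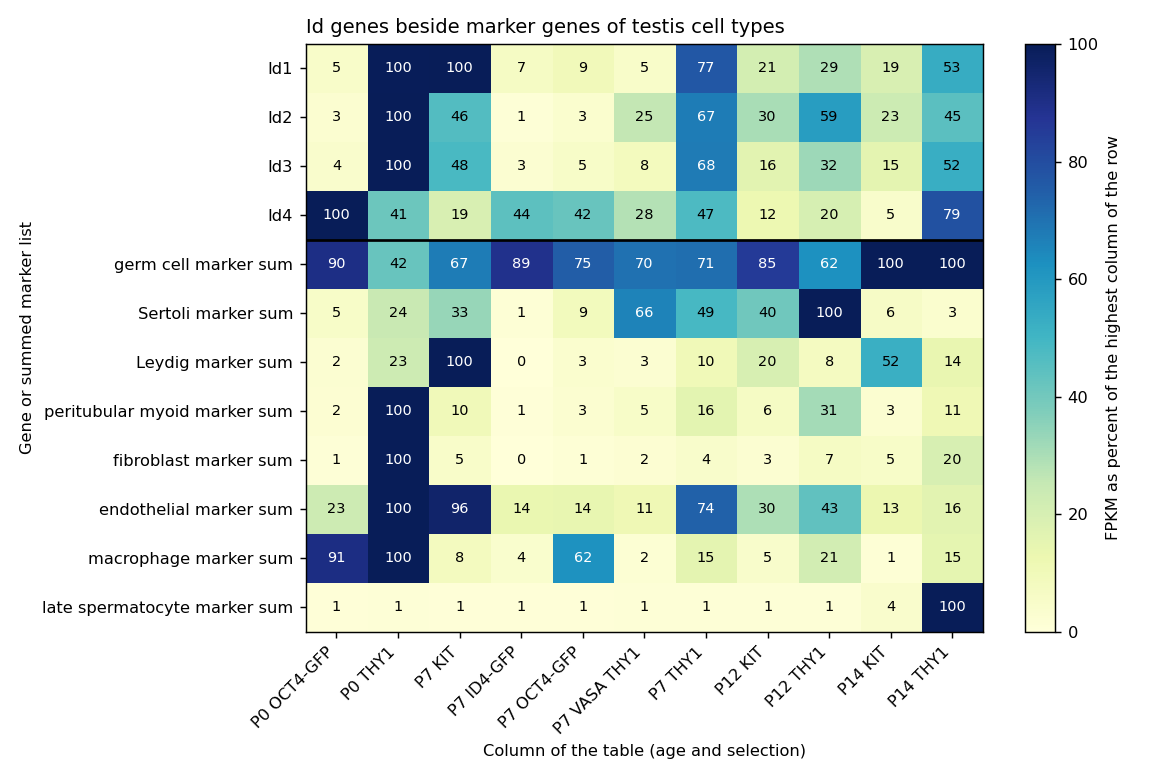
Each Id gene and each cell type marker sum as a percentage of its own highest column (colour), with populations in columns. The fibroblast, myoid, endothelial and macrophage sums peak in P0 THY1 cells, as Id2 and Id3 do. The late spermatocyte sum peaks in P14 THY1 cells, where Id4 reads 49.1 FPKM.

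Set beside the markers of other testis cells, the GFP columns held low sums for several types but not for all. P0 OCT4-GFP cells held 222 FPKM of the 7 macrophage markers, close to the 245 FPKM of P0 THY1 cells. The fibroblast, myoid and endothelial sums were 55.6, 31.9 and 53.9 FPKM in P0 OCT4-GFP cells. In P0 THY1 cells these sums were 6728, 1371 and 237 FPKM. Id1, Id2 and Id3 read between 2.64 and 5.07 FPKM in P0 OCT4-GFP cells. P7 OCT4-GFP cells held 122 FPKM of Sertoli and 152 FPKM of macrophage markers, with Id1, Id2 and Id3 between 2.95 and 6.79 FPKM. P7 ID4-GFP cells held the least, with 18.7 FPKM of Sertoli, 3.13 FPKM of Leydig, 10.6 FPKM of myoid and 8.72 FPKM of macrophage markers, and the macrophage marker Aif1 was listed at 0. P14 KIT cells, whose fibroblast sum was 347 FPKM and Leydig sum 590.1 FPKM, held 12.0 FPKM of Id1 and 19.5 FPKM of Id3. The part of any of these cell types in the Id levels was not tested.

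Id4 followed the receptor for glial cell line-derived neurotrophic factor (GDNF), the Sertoli signal for stem cell self-renewal, in most columns. Ret, its signalling subunit, was 106 FPKM in P0 OCT4-GFP, 65.6 FPKM in P7 OCT4-GFP and 72.8 FPKM in P7 ID4-GFP cells. It was 10.8, 11.3 and 1.23 FPKM in KIT cells of P7, P12 and P14, and 22.3, 39.8, 24.2 and 21.3 FPKM in THY1 cells of P0, P7, P12 and P14. As with Id4, the 3 KIT columns were the lowest. The co-receptor Gfra1 had the same extremes, 153 FPKM in P0 OCT4-GFP and 0.992 FPKM in P14 KIT cells. At P7, both receptor genes were higher in the GFP-sorted than in the THY1 cells, and Id4 was not. Gfra1 read 58.7 FPKM in OCT4-GFP, 67.5 FPKM in ID4-GFP and 29.0 FPKM in THY1 cells. Id4 read 26.3, 27.7 and 29.6 FPKM in the same order.

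Of 19 GDNF-responsive and self-renewal genes, 10 were lower and none higher in P7 KIT than in P7 THY1 cells, where 5.51% of the genes tested were called, with a median difference of -1.18 against 0.03 over all genes. At P12, 3 were lower and none higher, where 11.2% were called, with a median of -0.75 against -0.0040 over all genes. Of the 19, 14 reached the 5 FPKM floor at P7 and 13 at P12. At P14, 6 were lower and none higher, where 24.2% were called, with a median of -1.55 against 0.04 over all genes, and 7 of the 19 reached the 5 FPKM floor. In P0 OCT4-GFP against P0 THY1 cells, 12 of 19 were higher and none lower, and 17 reached the floor. There 36.3% of the genes tested were called. In P7 against P0 OCT4-GFP cells, 8 were lower and none higher, and 16 reached the floor. There 5.48% of the genes tested were called. Id4 was called in the same direction as the list in both. In P14 against P12 THY1 cells, the list and Id4 went apart. There 4 of 19 were lower and none higher, where 32.5% of the genes tested were called, and 13 of the 19 reached the floor. The median was -0.46 against -0.10 over all genes, whereas Id4 was called higher at 1.88. In P14 THY1 cells, Ret and Gfra1 read 21.3 and 16.6 FPKM beside an Id4 of 49.1 FPKM. Against P7 THY1 cells, 2 of 19 were higher and 4 lower in OCT4-GFP cells, and 5 higher and 5 lower in ID4-GFP cells. There 20.7% and 22.5% of the genes tested were called, and 16 and 15 of the 19 reached the floor. In P7 against P0 THY1 cells, 3 were higher and none lower, and 14 reached the floor, where 23.5% were called. Id4 was not called in any of the latter comparisons.

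Of 11 genes of differentiating spermatogonia, 6 were higher and none lower in KIT than in THY1 cells at each of P7, P12 and P14, where 5.51%, 11.2% and 24.2% of the genes tested were called. The medians were 1.12, 1.24 and 1.37, against 0.03, -0.0040 and 0.04 over all genes. The 5 FPKM floor was reached by 10, 11 and 11 of the 11 genes. Ccnd2, which encodes cyclin D2, gave -0.59, -0.38 and -0.89 at these ages, none called. Kit was 78.9, 72.5 and 103 FPKM in KIT cells of P7, P12 and P14, and 21.3, 15.4 and 24.1 FPKM in THY1 cells of those ages. Stra8, the retinoic acid target needed for meiotic entry, was 106, 192 and 251 FPKM in KIT cells, and 39.7, 32.0 and 35.0 FPKM in THY1 cells. In P7 ID4-GFP cells, Kit read 38.8 FPKM and Stra8 61.5 FPKM beside 27.7 FPKM of Id4.

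**Figure D5:**
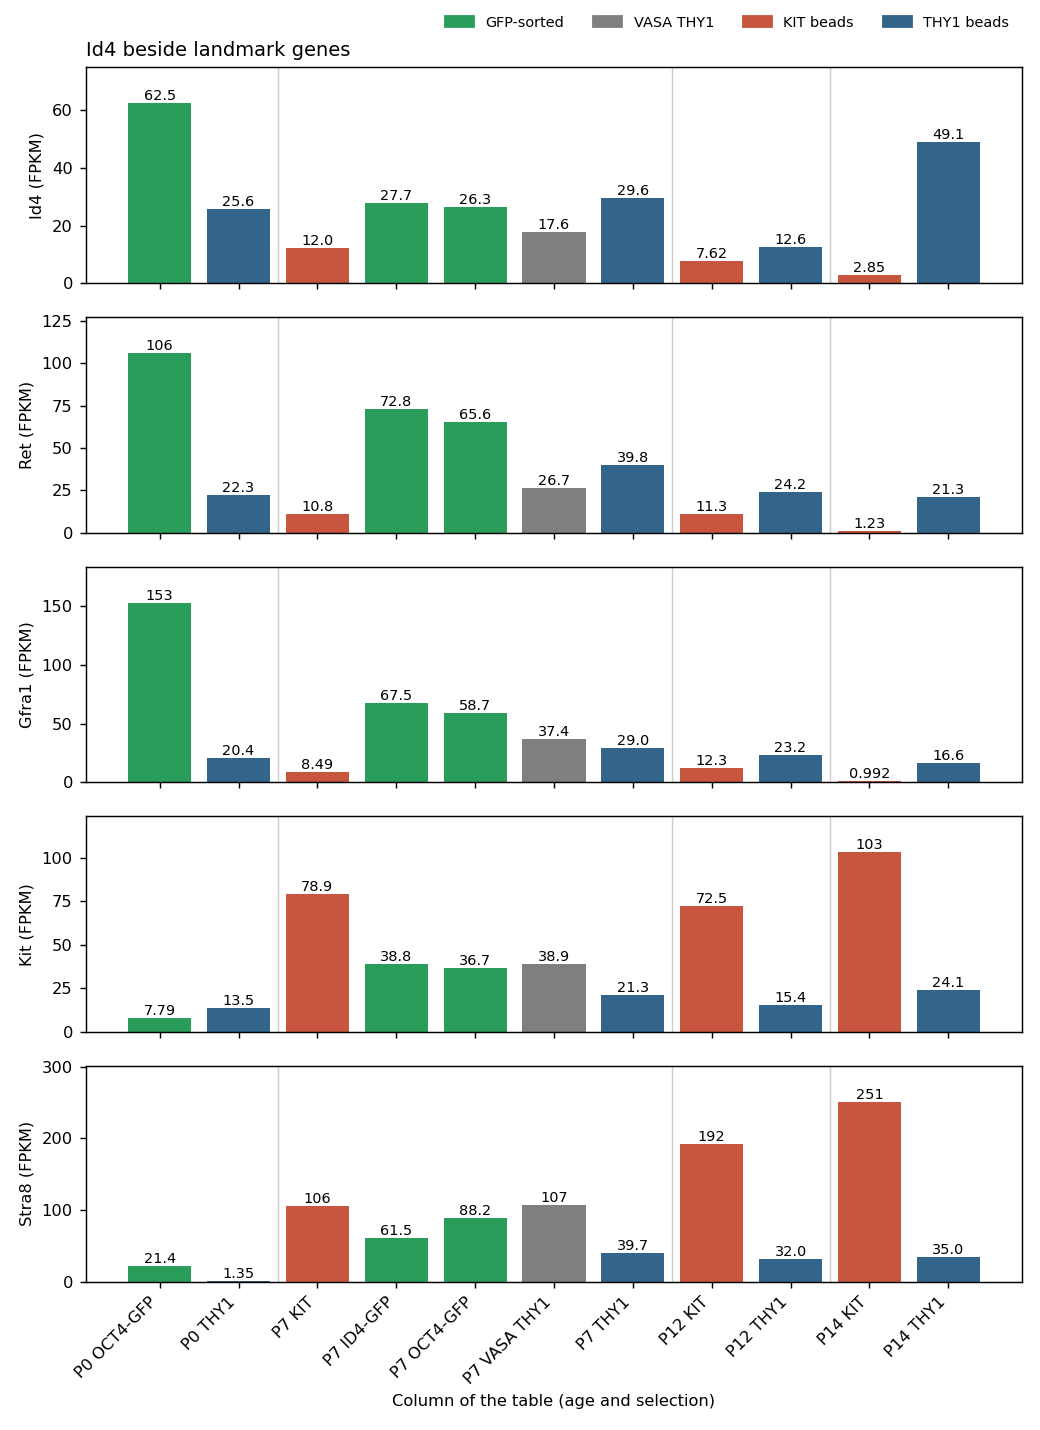
Levels in FPKM (bars from 0, 1 value per population) of Id4, of the GDNF receptor genes Ret and Gfra1, and of the differentiation genes Kit and Stra8. Id4, Ret and Gfra1 share their highest column, P0 OCT4-GFP, and their lowest, P14 KIT, while Kit and Stra8 are highest in P14 KIT at 103 and 251 FPKM.

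The likeness between columns was measured as Pearson's r of log2(FPKM + 1) over the 11 columns, among 12269 genes, as a description without a p-value. The columns share sorts and cell mixtures, so they are not independent points. Id1 with Id3 gave 0.95, Id2 with Id3 0.93 and Id1 with Id2 0.81. Id4 gave -0.10, -0.28 and -0.09 with Id1, Id2 and Id3. Within the 7 bead columns alone, Id4 gave 0.68, 0.71 and 0.83 with Id1, Id2 and Id3.

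The 5 genes most like Id1 were Layn, Syde1, Id3, C1qtnf1 and Herpud1, with r between 0.945 and 0.961. Those most like Id2 were Anxa1 at 0.979, Sparc, which encodes a secreted matrix protein, at 0.977, Clcn4-2 at 0.973, Fam198b at 0.970 and Gem at 0.968. Those most like Id3 were Prkcdbp at 0.992, Fhl2 at 0.977, Ccdc80 at 0.973, Syde1 at 0.972 and Col4a1, a basement membrane collagen chain, at 0.969. Those most like Id4 were Tada3, a subunit of histone acetyltransferase complexes, at 0.954, Rfx5 at 0.925, Dcaf8 at 0.924, H2afy3 at 0.909 and Cbx7, a Polycomb subunit, at 0.901.

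Ret stood at place 18 among the genes most like Id4 with r = 0.86, Etv5, a GDNF-induced transcription factor, at place 31 with 0.84, and Gfra1 at place 42 with 0.82. With P14 THY1 cells left out, over 10 columns, Etv5 stood at place 9 with 0.96, Ret at place 37 with 0.94 and Gfra1 at place 73 with 0.93. By Spearman's rho over all 11 columns, Etv5, Ret and Gfra1 stood at places 90, 147 and 199. None of the 5 genes listed for Id4 stayed among its 5 closest without that column. The lists for Id1, Id2 and Id3 kept 1, 3 and 2 of their 5 genes. By Spearman's rho, the lists for Id1 to Id4 kept 1, 0, 1 and 1 of their 5 genes, and over the 7 bead columns 0, 0, 1 and 2, so most of the named neighbours depend on the setting.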

How the data were processed

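The deposited table gives FPKM, which the authors made from directional RNA-seq reads of 16 libraries. The submitters' processing notes name CASAVA, TopHat2 2.0.9, Cufflinks 2.1.1 and the mm9 build. The annotation is not given in the sources used here, nor is how the 2 libraries behind each of 5 columns were combined. Promoter windows come from RefSeq annotation of GRCm38.p6 and were matched by symbol.

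FPKM hides depth, so counting error is unknown. The smallest step between low values, which grows as depth falls, was 0.959 to 2.04 times that of P14 THY1 in 9 columns, and 3.73 times in P7 THY1, read from 14.8% of 237 low genes. Differences were taken of log2(FPKM + 1), with a 2-fold size rule and a floor of 5 FPKM in the higher column. Values were computed over all 20889 genes with numpy 2.4.6 and pandas 2.3.3 under Python 3.11.15, figures were drawn with matplotlib 3.10.9, and the scripts were tested on simulated data. List medians cover members with a mean of at least 1 FPKM, and all-gene medians the 13384 such genes.

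Of 157 list entries, 156 were matched, Adgre1 under Emr1, and Rhox5 was not analysed. Sohlh1 and Sohlh2 were entered and counted in both the bHLH and the differentiating spermatogonia list. The Id genes, the gene lists and the tests were chosen with earlier results of these data known. Named list genes are up to 4 members with the largest called difference in a comparison, plus Ret, Gfra1, Kit and Stra8, and the 5 genes closest to each Id gene by Pearson's r. Ldhc, Acrv1, Etv5, Ccnd2 and Aif1 were named after their values were seen. Alternatives covered the pseudocount, the fold rule, the floor, 3 scalings and the VASA THY1 column in place of P7 THY1. The likeness without P14 THY1 and over 7 bead columns was added after seeing the data. The 8 bisulfite and 6 ChIP-seq or input samples were not analysed here.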

Additional observations from a re-analysis of the deposited data

Results flagged for a closer look

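Several differences of one Id gene ran in opposite directions in 2 settings, and in each case the difference between them was not tested. All values are differences of log2(FPKM + 1), each from 1 value per group.

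Id1 in KIT against THY1 cells was 0.38 at P7, -0.46 at P12 and -1.40 at P14, so the P7 value lay 0.83 above the P12 value and 1.77 above the P14 value. In P14 against P12 cells, Id4 was -1.16 with KIT selection and 1.88 with THY1 selection, -3.04 apart. Id1 was -0.11 with KIT and 0.83 with THY1 selection, -0.94 apart, and Id3 was -0.08 with KIT and 0.70 with THY1 selection, -0.77 apart.

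In P7 against P0 cells, Id1 was -0.37 with THY1 and 0.78 with OCT4-GFP selection, -1.16 apart. Id2 was -0.56 with THY1 and 0.11 with OCT4-GFP selection, -0.68 apart, and Id3 was -0.56 with THY1 and 0.36 with OCT4-GFP selection, -0.92 apart. Id4 went the other way, with 0.20 for THY1 and -1.22 for OCT4-GFP selection, 1.42 apart. The same 4 values also give the Id4 difference of OCT4-GFP against THY1 cells as 1.25 at P0 and -0.16 at P7, again 1.42 apart.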

How the results depend on the processing

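Over all alternatives, the 60 member differences stayed on the same side of the threshold in 390 recomputations, 8 of which changed sign below it, lost their call in 24, gained one in 19 and reversed with a call in 7. Under a 4-fold rule, the members called were 0 for P7 KIT against THY1, 1 for P14 KIT against THY1, 0 for P12 against P7 THY1, 0 for P14 against P12 THY1, 1 for P12 against P7 KIT, 0 for P14 against P12 KIT and 0 for P7 against P0 OCT4-GFP, and 0.285% to 12.1% of the genes tested passed it in those comparisons. A pseudocount of 5 left 1 for P12 against P7 THY1 and 0 for P14 against P12 KIT. Quantile normalization gave 2 for P12 KIT against THY1 and 0 for P14 against P12 KIT. Germ cell marker scaling shifted the median of all genes by -1.58 to 0.69, gave 3 for P12 KIT against THY1, 3 for P7 against P0 THY1 and 4 for P12 against P7 KIT, and reversed Id4 in P0 OCT4-GFP against THY1, to -0.45. With VASA THY1 in place of P7 THY1, 2 were called for P7 KIT, 3 for P7 against P0 and 1 for P7 OCT4-GFP. With a call before or after, that column reversed Id3 in P7 KIT (2.44), Id1 (2.22), Id2 (1.17) and Id3 (1.86) in P12 THY1, and Id1 in P7 OCT4-GFP (0.74) and P7 ID4-GFP (0.31), and below the threshold it turned Id2 in P7 KIT (0.84) and Id4 in P7 OCT4-GFP (0.55), P7 ID4-GFP (0.63) and P7 against P0 THY1 (-0.52). Germ cell scaling turned Id4 in P7 against P0 THY1 (-0.55) and in P7 ID4-GFP against OCT4-GFP (-0.05), and Id1 (-0.45) and Id3 (-0.62) in P14 against P12 THY1. For P7 ID4-GFP against OCT4-GFP, 1 was called with a pseudocount of 0.1 and 1 with no floor. The causes were not tested. No paired analysis was possible because the table has 1 column per group without replicate numbers, which also prevented leaving out replicates.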
